A study of Homo sapiens with 45 samples.

Results

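The genes described here encode the enzymes of the tricarboxylic acid (TCA) cycle and of the steps that bring pyruvate into it, as transcribed in 15 human breast cancer cell lines. The members were taken from a list of 38 symbols matched to the gene identifiers of the count table, and all 38 were found among its 64485 genes. The rule uses no measured value. They comprise the mitochondrial pyruvate carrier, the pyruvate dehydrogenase complex with its kinases and phosphatases, pyruvate carboxylase and PCK2, the enzymes of the cycle from citrate synthase to malate dehydrogenase, and the NADP-linked isocitrate dehydrogenases, cytosolic aconitase, ATP citrate lyase and malic enzymes.

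The data were RNA-seq counts of 45 libraries, 3 from each line, made from RNA depleted of ribosomal RNA. The study, as its title gives it, concerns glutamine use by the TCA cycle in breast cancer cells with high MYC. MDA-MB-468, MDA-MB-157, MDA-MB-453, MDA-MB-231 and MDA-MB-436 grew in L-15 medium, BT-20 in EMEM, Hs578T in DMEM, and HCC38, HCC70, HCC1937, HCC1143, HCC1806, HCC1187, BT-549 and HCC1395 in RPMI 1640. No line was treated, all carry the genotype label wild-type, and each is an established tumour line, so a line is 1 case and not a sample of patients. Serum and penicillin with streptomycin were listed for every medium, and a glutamine supplement for every medium other than L-15. Insulin was added for BT-20, BT-549 and MDA-MB-436, and MDA-MB-436 also received glutathione. The labels call all lines epithelial. The summed level of 6 epithelial markers was highest in BT-20, at 9224 CPM (counts scaled to a common library size). It was lowest in BT-549, at 7.73 CPM, where these markers did not bear out the label. This sum was also low in Hs578T (136 CPM), MDA-MB-436 (164 CPM), HCC1395 (266 CPM) and MDA-MB-157 (319 CPM), against a median of 3112 CPM over the lines. The summed level of 5 mesenchymal markers was highest in Hs578T (9173 CPM) and lowest in HCC1806 (13.3 CPM). Summed markers of other cell types stayed at or under 34.4 CPM (blood) and 121 CPM (endothelial), but 4 fibroblast markers reached 582 CPM in Hs578T and 445 CPM in MDA-MB-157, against a median of 7.48 CPM over the lines. MDA-MB-157 was also close to Hs578T in the mesenchymal sum, at 8796 CPM (median over lines 979 CPM). Libraries held 2312138 to 14653677 counts (median 6263573), with the fewest in Hs578T replicate 2. Whether the libraries of a line came from separate cultures is not stated in the labels, so the p-values measure the spread between these libraries, which may be technical. In RNA from whole cultures, fewer cells holding a transcript and less of it per cell cannot be told apart.

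Pyruvate made by glycolysis enters mitochondria through a carrier and is oxidised to acetyl-CoA by the pyruvate dehydrogenase complex, which kinases switch off and phosphatases switch on. The TCA cycle condenses acetyl-CoA with oxaloacetate to citrate and returns it to oxaloacetate, giving reducing equivalents to the respiratory chain. Glutamine can feed the cycle at 2-oxoglutarate, and citrate or malate can leave it to supply lipid synthesis and NADPH, which is why isocitrate dehydrogenases, malic enzymes and ATP citrate lyase are studied in tumours.

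Promoter sequence is shown for members whose upstream window held a motif that bears on a list or a neighbourhood described here. The RefSeq table (GRCh38.p14) held 35 of the 38 members. The windows cover the 250 bases before the RefSeq start, and motifs were searched on both strands. TGACNNNGC, the core that NRF2 binds, was present in 3 members (8.57%), against 11% of 27305 promoters, and ME1, a textbook NRF2 target, was one of them. CCGGAAG, the core of ETS factors such as GABP, was present in 7 members (20.0%: DLST, IDH3B, IDH3G, MDH2, ME2, SDHB and SDHD), against 8.82% of all promoters. ACGTG, the core bound by hypoxia-inducible factors, was present in 8 members (22.9%), against 18.7%. They were DLAT, IDH1, IDH3G, ME3, PC, PDHB, PDK3 and PDP2, and PDK1 was not among them. CACGTG, the MYC E-box, which contains ACGTG, was present in 3 (8.57%: ME3, PDHB and PDP2), against 6.49%. A match is only a description of these letters. The windows of ME1, SDHD and IDH3B are given from 5′ to 3′ along the gene with the motif in capitals. In ME1 the capitals mark TGACNNNGC, and in SDHD and IDH3B they mark CCGGAAG, which SDHD carries on the opposite strand.
ME1, chr6:83431052-83431301, minus strand: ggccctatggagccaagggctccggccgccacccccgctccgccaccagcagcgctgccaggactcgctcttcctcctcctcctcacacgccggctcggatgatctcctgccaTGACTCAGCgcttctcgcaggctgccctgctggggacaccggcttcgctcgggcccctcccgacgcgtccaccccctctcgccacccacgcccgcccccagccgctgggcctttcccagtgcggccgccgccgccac
SDHD, chr11:112086623-112086872, plus strand: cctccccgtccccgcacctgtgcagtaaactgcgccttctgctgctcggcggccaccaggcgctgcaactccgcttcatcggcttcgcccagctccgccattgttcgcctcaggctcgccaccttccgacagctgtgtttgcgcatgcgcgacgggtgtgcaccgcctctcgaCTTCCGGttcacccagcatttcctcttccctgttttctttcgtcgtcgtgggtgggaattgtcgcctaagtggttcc
IDH3B, chr20:2664217-2664466, minus strand: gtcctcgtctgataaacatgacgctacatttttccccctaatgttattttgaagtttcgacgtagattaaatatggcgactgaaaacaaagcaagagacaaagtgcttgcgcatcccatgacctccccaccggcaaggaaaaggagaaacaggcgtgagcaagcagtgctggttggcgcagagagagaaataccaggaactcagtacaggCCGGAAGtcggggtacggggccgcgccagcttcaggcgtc

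Every enzyme gene that could be tested differed among the lines. With edgeR's quasi-likelihood test and Benjamini-Hochberg adjustment over all genes, 37 of 37 members passed an adjusted p of 0.05, but so did 98.2% of all genes tested, so the share is near the background. The mean level in the highest line over that in the lowest had a median of 5.68-fold over the members. It was 163-fold for ME1, 138-fold for PDK4, 43.1-fold for IDH2, 25.0-fold for ME3, 19.4-fold for IDH1, 14.2-fold for ACO1, 11.1-fold for PDK3 and 10.1-fold for ME2. The smallest was 2.52-fold, for MDH1, and 11 members stayed under 4-fold. On the log2 scale the median range over the line means was 2.50 for the members, against 2.76 for all genes tested and 2.54 for the 9797 genes with a mean of at least 10 CPM.

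A member was called higher or lower in a line when the line differed from the mean of the other 14 lines with an adjusted p under 0.05 (edgeR quasi-likelihood test) and by at least 1 on the log2 scale. Of 555 pairs of gene and line, 58 were called higher (10.5%, against 16.2% of all pairs) and 64 lower (11.5%, against 12.5%). At least 1 line was called higher for 26 members (70.3%, against 85.1% of all genes) and lower for 27 (73.0%, against 79.1%). The 7 members with neither call (18.9%, against 7.35%) were PDHA1, PDHB, SDHA, SDHB, MDH1, MDH2 and DLST. They belong to the pyruvate, succinate, malate and oxoglutarate dehydrogenases. The kinases, NADP-linked isocitrate dehydrogenases and malic enzymes, 9 genes in all, held 30 of the 58 higher and 33 of the 64 lower calls. That is 22.2% and 24.4% of their 135 pairs, against 16.2% and 12.5% of all pairs, for families picked after their calls had been seen. For 22 members (59.5%, against 50.5% of all genes) at least 1 line had its 3 libraries outside all 42 libraries of the other lines.

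**Figure D1:**
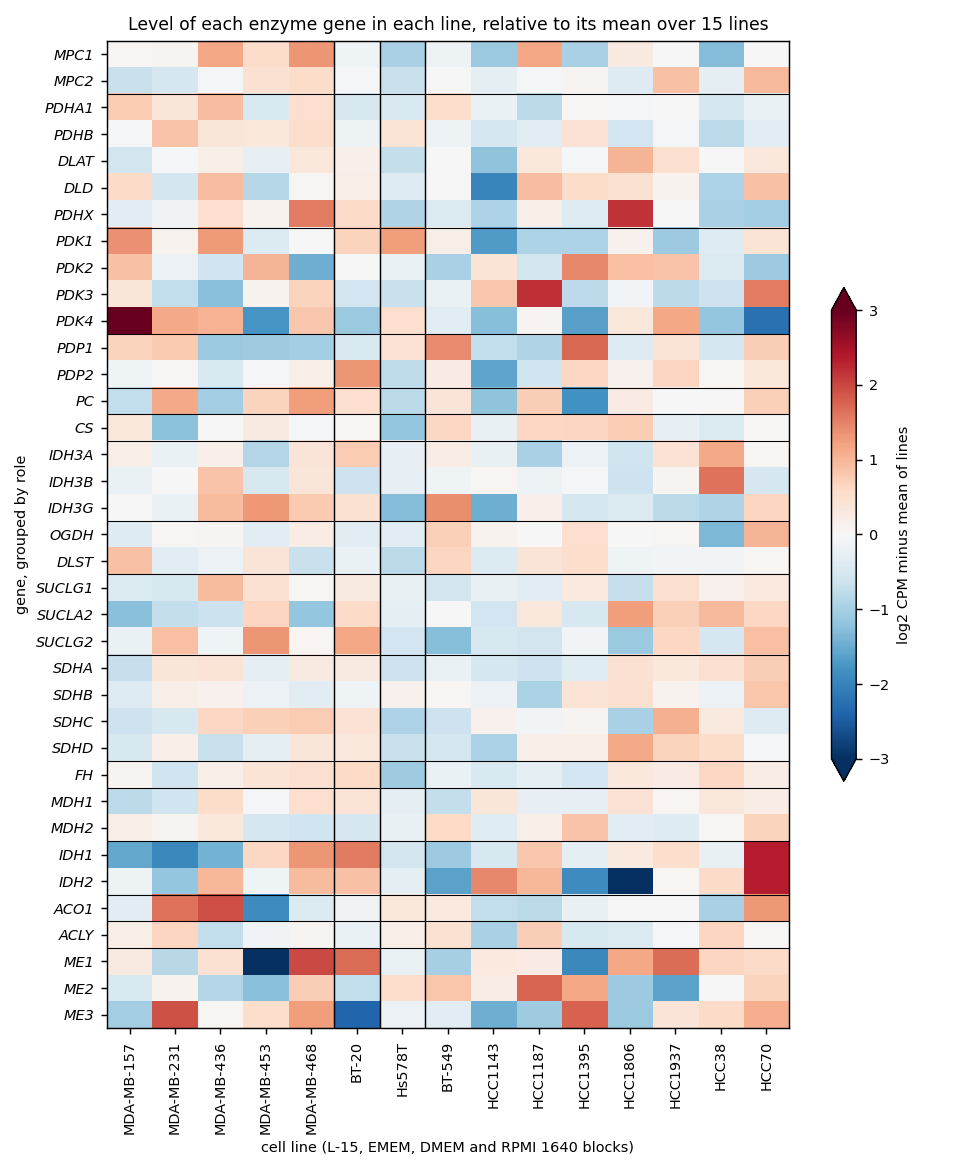
Mean log2 CPM of 37 enzyme genes (rows, by role, separated by lines) in 15 cell lines (columns, by growth medium), each minus the gene's mean over the lines; red is above and blue below that mean, and colours end at 3 log2 units. ME1 in MDA-MB-453, IDH2 in HCC1806 and PDK4 in MDA-MB-157 reach the ends of the scale, while rows such as MDH1 and SDHA stay pale.

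The mitochondrial pyruvate carrier is a heteromer of MPC1 and MPC2. MPC1 stood at 83.6, 111 and 117 CPM in MDA-MB-468, its highest line, and at 15.3, 18.3 and 15.8 CPM in HCC38, its lowest. It was called higher in MDA-MB-468, HCC1187 and MDA-MB-436 and lower in HCC38, HCC1143 and HCC1395, and its libraries in the first of these sets lay well above those in the second. Against the other lines of runs 1 and 2 alone, HCC38 differed by -0.74 and HCC1143 by -0.41, short of the limit. MPC2 varied less, with 119 ± 5.14 CPM in HCC70 (SD, n = 3 libraries here and below) and 38.4 ± 6.64 CPM in MDA-MB-157, and was called higher in HCC70 alone of the 15 lines. MPC2 exons overlap DCAF6 on the opposite strand over 22.5% of their length.

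Of the subunits of the pyruvate dehydrogenase complex, PDHX showed the widest range. PDHX is the binding protein that anchors the E3 component to the core. Its 3 libraries in HCC1806 held 499, 509 and 503 CPM, against a lowest of 49.2, a median of 98.1 and a highest of 346 CPM in the 42 libraries of the other lines. The HCC1806 libraries lay above all others, and the difference was 2.32 ± 0.07 on the log2 scale (SE; adjusted p = 3.13e-32, edgeR). MDA-MB-468 came second, with 308, 325 and 346 CPM, and was called higher by 1.65 ± 0.07.

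DLAT, the E2 core that carries lipoyl groups, had 334, 304 and 291 CPM in HCC1806, against a lowest of 64.8, a median of 157 and a highest of 217 CPM in the other lines. Those libraries again lay above all others (log2 difference 1.09 ± 0.09). DLD, the E3 flavoprotein shared with the oxoglutarate dehydrogenase complex, had 48.4, 49.6 and 40.8 CPM in HCC1143, against a lowest of 79.1, a median of 216 and a highest of 391 CPM elsewhere. It lay below all others there (log2 difference -2.14 ± 0.16). The E1 subunits PDHA1 and PDHB had no call. PDHA1 exons overlap MAP3K15 on the opposite strand over 21.3% of their length. PDHA1 was highest in MDA-MB-436 (445 ± 68.4 CPM) and lowest in HCC1187 (136 ± 24.6 CPM), and PDHB was highest in MDA-MB-231 (202 ± 40.02 CPM) and lowest in HCC38 (62.9 ± 8.28 CPM).

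The pyruvate dehydrogenase kinases phosphorylate and switch off the complex, and each of the 4 genes had its highest mean in a different line. PDK1 and PDK4 were both called higher in MDA-MB-157 and in MDA-MB-436. PDK4, the kinase known to rise with fasting and fatty acid use, had 117, 102 and 101 CPM in MDA-MB-157. The 42 libraries of the other lines had a lowest of 0.506, a median of 3.91 and a highest of 15.9 CPM. MDA-MB-157 lay apart from all other lines, with a log2 difference of 4.87 ± 0.13 (adjusted p = 1.55e-32, edgeR). PDK4 was also called higher in MDA-MB-231 (11.7 ± 5.51 CPM), HCC1937 (10.9 ± 1.65 CPM) and MDA-MB-436 (10.1 ± 2.72 CPM), and lower in 6 lines, down to 0.774 ± 0.238 CPM in HCC70.

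PDK3 had 118, 113 and 97.0 CPM in HCC1187, against a lowest of 8.33, a median of 19.6 and a highest of 70.9 CPM in the other lines. HCC1187 was above all of them (log2 difference 2.34 ± 0.10), and HCC70 was second, with 69.6 ± 1.86 CPM. PDK1, the kinase known as a target of hypoxia-inducible factors, had 11.5, 16.0 and 15.1 CPM in HCC1143, against a lowest of 19.6, a median of 49.0 and a highest of 200.3 CPM elsewhere. HCC1143 lay below all other lines (log2 difference -1.85 ± 0.20). Hs578T had the highest mean, 122 ± 68.1 CPM, but its libraries held 200.3, 82.1 and 82.6 CPM and overlapped those of MDA-MB-157, at 116, 112 and 133 CPM. PDK2 was low in all lines, with 13.7 ± 1.76 CPM in HCC1395, its highest, and 1.62 ± 0.653 CPM in MDA-MB-468, its lowest. Its exons overlap SAMD14 on the opposite strand over 38.6% of their length, and since the strand setting of the counting is not given in the sources used here, reads of the pair may be shared.

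Levels of different genes were compared as CPM per kb of the exons of GENCODE 29 basic transcripts. On that scale PDK3 took the largest share of the kinases in 12 of 15 lines, up to 91.7% in HCC1187, and in 10 of them also with all annotated exons as the length. PDK1 was largest in MDA-MB-436 (51.2%) and Hs578T (47.8%), and PDK4 in MDA-MB-157 (56.6%). These shares add to 100 within a line, so a high share of one kinase lowers the others. The lead of PDK3 rests on the lengths used, 14253 bases for PDK1 and 2513 bases for PDK3. Not divided by length, PDK1 had more CPM than PDK3 in every line other than HCC1143, HCC1187 and HCC70.

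The phosphatases that reactivate the complex were led by PDP1, which held 77.7% (BT-20) to 96.7% (Hs578T) of their CPM per kb. PDP1 was highest in HCC1395, at 566 ± 29.6 CPM, and lowest in MDA-MB-436, at 79.1 ± 5.58 CPM. PDP2 had 58.6, 51.1 and 58.5 CPM in BT-20, against a lowest of 6.85, a median of 22.7 and a highest of 39.3 CPM in the other lines. It was above all others in BT-20 (log2 difference 1.44 ± 0.09) and below all others in HCC1143, at 7.01, 6.85 and 7.47 CPM (log2 difference -1.74 ± 0.13).

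Pyruvate carboxylase (PC), which makes oxaloacetate from pyruvate, had 39.6, 33.3 and 26.3 CPM in MDA-MB-468, its highest line, and 5.48, 2.54 and 3.29 CPM in HCC1395, its lowest. PC was called higher in MDA-MB-468 and MDA-MB-231 and lower in HCC1395, HCC1143 and MDA-MB-436. PCK2, the mitochondrial enzyme that makes phosphoenolpyruvate from oxaloacetate, had 1 count in all 45 libraries. All 10 of its nearest protein-coding genes on chromosome 14 were under 10 counts in total as well, among them the proteasome activator genes PSME1 (9 counts) and PSME2 (2 counts) and the ubiquitin-like modifier NEDD8 (0 counts). No other member had more than 4 such neighbours. The level of PCK2 therefore could not be read from this table, and it was not tested.

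CS, citrate synthase, had 90.4, 74.9 and 90.1 CPM in HCC1806 and 19.4, 22.1 and 21.8 CPM in MDA-MB-231. It was called lower in MDA-MB-231 and Hs578T, by 1.35 ± 0.15 and 1.17 ± 0.15 on the log2 scale, and higher in no line. Against only the other lines sequenced in runs 1 and 2, which are HCC1143, HCC38 and the other of this pair, the differences were -0.66 and -0.38 and both calls were lost.

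The NAD-linked isocitrate dehydrogenase has a catalytic subunit, IDH3A, and the subunits IDH3B and IDH3G. IDH3B had 396, 392 and 389.9 CPM in HCC38, against a lowest of 73.2, a median of 114 and a highest of 258 CPM in the other lines. IDH3A had 177, 202 and 148 CPM in HCC38, against a lowest of 37.2, a median of 82.4 and a highest of 146 CPM. HCC38 was above all other lines for both genes, by 1.75 ± 0.09 and 1.22 ± 0.10 on the log2 scale. IDH3G did not share this pattern: it was highest in BT-549 (68.8 ± 8.66 CPM), lowest in HCC1143 (9.22 ± 1.47 CPM), and stood at 13.8 ± 0.970 CPM in HCC38. IDH3A exons overlap ACSBG1 on the opposite strand over 38.2% of their length.

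OGDH, the E1 subunit of the oxoglutarate dehydrogenase complex, had 26.5, 28.3 and 25.9 CPM in HCC38, against a lowest of 29.4, a median of 72.3 and a highest of 155 CPM in the other lines. HCC38 was thus below all others (log2 difference -1.47 ± 0.15) for the enzyme that follows isocitrate dehydrogenase in the cycle. DLST, the E2 subunit, had no call and was highest in MDA-MB-157 (143 ± 17.0 CPM) and lowest in Hs578T (44.6 ± 7.82 CPM).

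Succinyl-CoA synthetase pairs the shared alpha subunit SUCLG1 with an ATP-forming beta subunit, SUCLA2, or a GTP-forming one, SUCLG2. SUCLA2 had 270.1, 229.7 and 231 CPM in HCC1806, against a lowest of 38.2, a median of 102 and a highest of 212 CPM in the other lines. SUCLG2 had 219.9, 208 and 225 CPM in MDA-MB-453, against a lowest of 31.2, a median of 78.3 and a highest of 207 CPM. Each lay above all other lines, though by little for SUCLG2, with log2 differences of 1.34 ± 0.09 and 1.40 ± 0.10. Per kb, SUCLA2 made up 81.6% of the beta subunits in HCC1806 and 21.6% in MDA-MB-231, where SUCLG2 was the main one. SUCLG1 was above all other lines in MDA-MB-436, at 199, 209 and 208 CPM, against a highest of 152 CPM elsewhere.

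Succinate dehydrogenase, which is also complex II of the respiratory chain, has a flavoprotein (SDHA), an iron-sulphur subunit (SDHB) and a pair of membrane anchors (SDHC and SDHD). SDHA and SDHB varied little. SDHA had 464, 489 and 467 CPM in HCC70 and 175 ± 13.8 CPM in MDA-MB-157, and SDHB had 245, 240.3 and 238 CPM in HCC70 and 71.8 ± 18.6 CPM in HCC1187. Both lay above all other lines in HCC70, but their log2 differences, 0.78 ± 0.13 and 0.87 ± 0.10, were short of 1. Transcribed pseudogenes of SDHA were counted as genes of their own, SDHAP1 at 6.26 to 41.3 CPM and SDHAP3 at 1.41 to 8.79 CPM over the line means, and reads may be split between them and SDHA.

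The exons of SDHD overlap the protein-coding AP002884.3 on the same strand over 11.2% of their length. SDHD had 220.0, 181 and 223 CPM in HCC1806, against a lowest of 38.4, a median of 101 and a highest of 166 CPM elsewhere. HCC1806 was above all other lines (log2 difference 1.21 ± 0.10). SDHC moved the other way there: HCC1806 was its lowest line, at 12.9 ± 1.33 CPM, and HCC1937 its highest, at 56.3 ± 20.0 CPM. FH, fumarase, was highest in HCC38 (395 ± 44.5 CPM) and lowest in Hs578T (127 ± 41.3 CPM), where alone it was called. MDH1, the cytosolic malate dehydrogenase, had 247 ± 1.90 CPM in MDA-MB-436 and 98.1 ± 10.8 CPM in MDA-MB-157. MDH2, the mitochondrial one, was highest in HCC1395, at 212 ± 10.4 CPM, and lowest in MDA-MB-468, at 76.4 ± 4.89 CPM.

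The NADP-linked isocitrate dehydrogenases, cytosolic IDH1 and mitochondrial IDH2, were both highest in HCC70. IDH1 had 1151, 1145 and 1117 CPM there, against a lowest of 52.2, a median of 194 and a highest of 730.1 CPM in the other lines, and IDH2 had 418, 417 and 426 CPM, against a lowest of 9.44, a median of 85.7 and a highest of 238 CPM. Both were above all other lines, by 2.49 ± 0.13 (adjusted p = 4.86e-22) and 2.52 ± 0.11 (adjusted p = 2.50e-24, edgeR) on the log2 scale. IDH2 was also far below all others in HCC1806, at 10.2, 9.63 and 9.44 CPM, against a lowest of 20.0 and a median of 117 CPM elsewhere (log2 difference -3.30 ± 0.21). IDH1 was lowest in MDA-MB-231, at 70.2, 53.8 and 52.2 CPM, with MDA-MB-157 and MDA-MB-436 close to it at 76.9 ± 10.7 and 83.7 ± 6.19 CPM. Per kb, IDH1 held 96.6% of the pair in HCC1806 and 34.1% in MDA-MB-436, and IDH2 was the larger in MDA-MB-436 and HCC1143 under both sets of exon lengths.

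ACO1, the cytosolic aconitase that doubles as an iron-regulated RNA-binding protein, had 24.4, 19.0 and 20.3 CPM in MDA-MB-453, against a lowest of 34.3, a median of 73.7 and a highest of 314 CPM in the other lines. MDA-MB-453 was below all others (log2 difference -2.04 ± 0.15). At the other end, MDA-MB-436 had 314, 309 and 282 CPM and MDA-MB-231 248 ± 34.4 CPM. ACLY, which splits exported citrate into acetyl-CoA and oxaloacetate, had 131, 125 and 139 CPM in HCC1143, against a lowest of 152, a median of 260.0 and a highest of 502 CPM elsewhere. That line was below all others (log2 difference -1.06 ± 0.14), and HCC1187 was highest, at 434 ± 65.3 CPM.

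The malic enzymes turn malate into pyruvate and yield NADPH (ME1 in the cytosol, ME3 in mitochondria) or NADH (ME2 in mitochondria). ME1 had 0.756, 0.696 and 1.78 CPM in MDA-MB-453, against a lowest of 8.82, a median of 57.2 and a highest of 243 CPM in the other lines. MDA-MB-453 lay far below all others, with a log2 difference of -5.58 ± 0.30 (adjusted p = 1.83e-21, edgeR). MDA-MB-468 had the highest mean, at 243, 130.2 and 152 CPM, and overlapped BT-20 and HCC1937.

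ME2 had 301, 338 and 269 CPM in HCC1187, against a lowest of 23.1, a median of 96.3 and a highest of 233 CPM in the other lines. HCC1187 was above all others (log2 difference 1.87 ± 0.09), and HCC1937, at 23.1, 34.5 and 32.1 CPM, was below all others (log2 difference -1.71 ± 0.13). ME3 was low in all lines, with 28.2, 20.6 and 16.6 CPM in MDA-MB-231 and 0.465, 1.52 and 0.631 CPM in BT-20. Per kb, ME1 made up 87.5% of the malic enzymes in HCC1937 and 87.1% in BT-20 but 4.38% in MDA-MB-453, where ME3 reached its largest share, 41.6%. ME2 was the largest in 6 lines, up to 67.8% in BT-549, and in 4 of them under both sets of lengths.

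**Figure D2:**
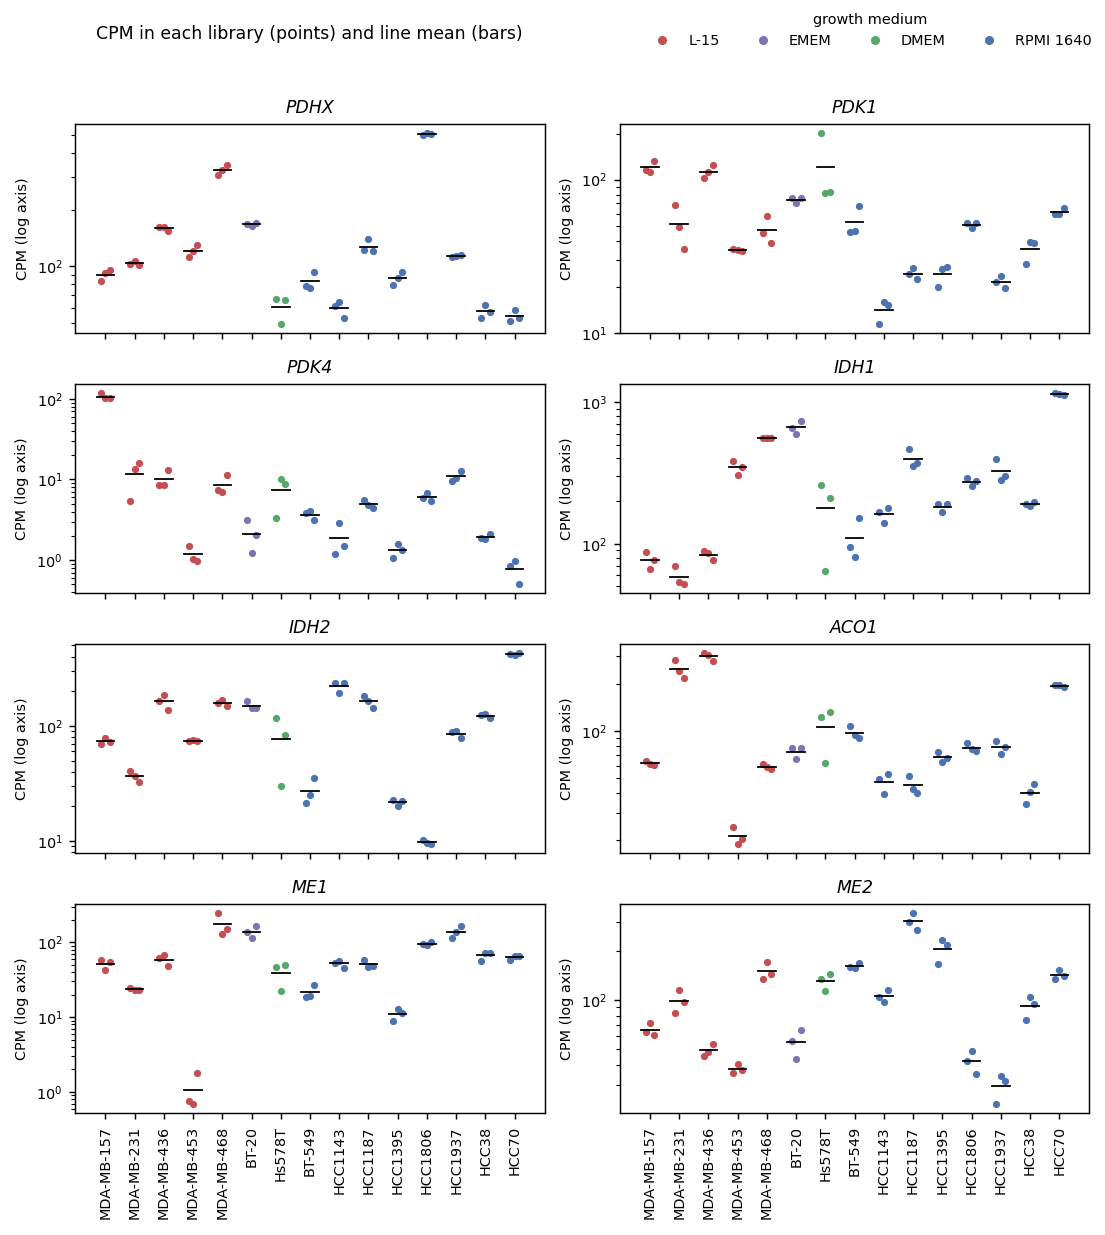
CPM on a log axis of 8 enzyme genes in each of 45 libraries (points, coloured by growth medium), with black bars for the mean of each line. The 3 libraries of PDHX in HCC1806 (499 to 509 CPM), PDK4 in MDA-MB-157 (101 to 117 CPM) and ME1 in MDA-MB-453 (0.696 to 1.78 CPM) lie apart from those of every other line.

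**Figure D3:**
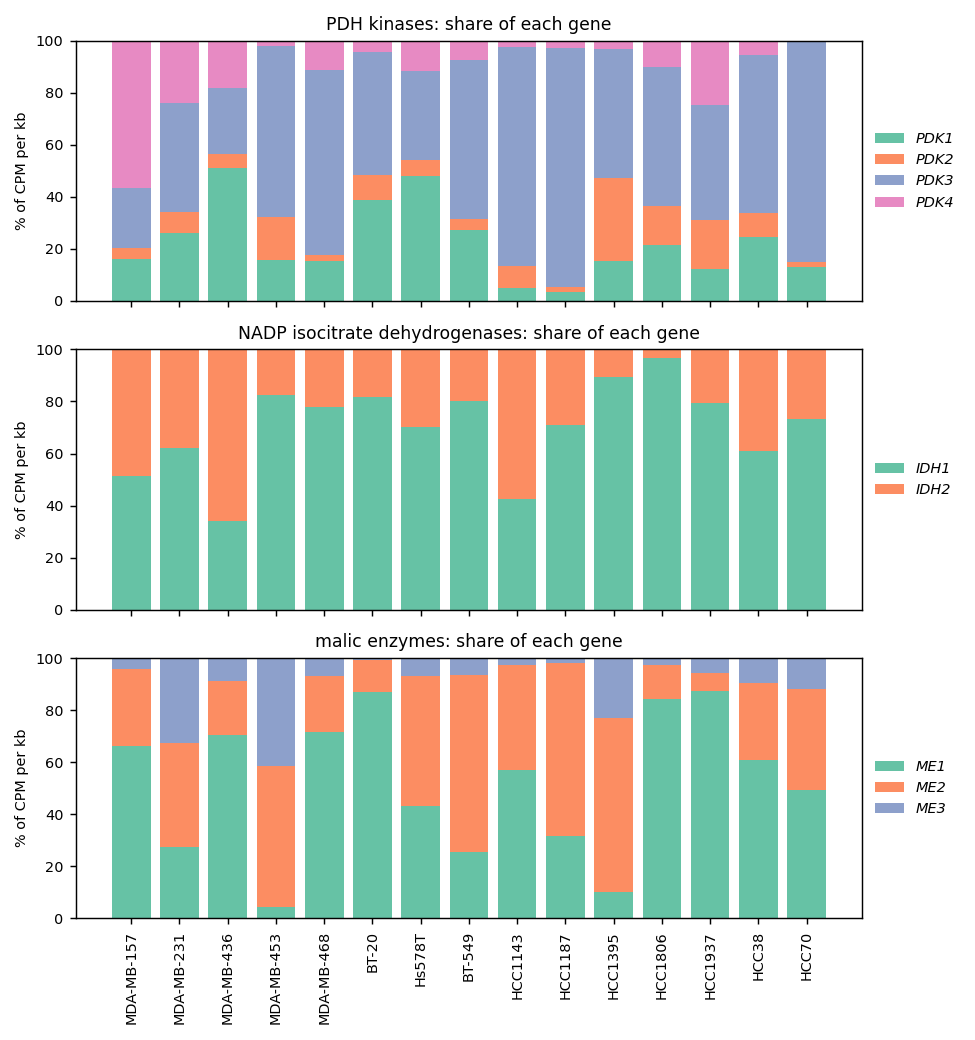
Share of each gene in the summed CPM per kb of basic exons of its family (percent, stacked to 100) in 15 lines, for the pyruvate dehydrogenase kinases, the NADP-linked isocitrate dehydrogenases and the malic enzymes. By this measure PDK3 is the largest kinase in 12 lines, and in 10 of them also with all annotated exons as the length. IDH1 falls to 34.1% in MDA-MB-436, and ME1 to 4.38% in MDA-MB-453.

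HCC1143 was the line in which most members were called lower. There 11 of 37 (29.7%) were lower, against 11.3% of all genes: MPC1, DLAT, DLD, PDK1, PDK4, PDP2, PC, IDH3G, SDHD, ACLY and ME3. MPC2, PDK2, PDK3 and PDP1, which belong to the carrier, the kinases and the phosphatases as well, were not called. IDH2 was the only member called higher (2.70%, against 18.4% of all genes), with 238, 192 and 235 CPM, against a median of 85.7 CPM in the other lines. The median log2 difference of the members in HCC1143 was -0.52, against 0.06 for all genes. HCC1143 was sequenced in runs 1 and 2 with HCC38, Hs578T and MDA-MB-231, and against the mean of those 3 lines alone 9 members were lower and 2 higher. Of the 11 members, MPC1 (-0.41), IDH3G (-0.72), DLAT (-0.98) and SDHD (-0.99) missed the call in that comparison.

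In HCC70, 7 members were called higher (18.9%, against 17.7% of all genes) and 3 lower (8.11%, against 22.9%), with a median of 0.42, against -0.11 for all genes. MDA-MB-468 also had 7 higher (18.9%, against 14.7%) and 3 lower (8.11%, against 9.19%), as did MDA-MB-436 for the higher side (18.9%, against 16.4%) with 4 lower (10.8%, against 10.9%). HCC1806 had 6 higher (16.2%, against 15.9%) and 5 lower (13.5%, against 13.7%). Hs578T had 1 higher (2.70%, against 20.9%), which was PDK1, and 4 lower (10.8%, against 9.56%), which were CS, IDH3G, SDHC and FH. Without its replicate 2, which had fewer counts than any other library, CS (-0.95) and FH (-0.84) missed the limit of 1, and without replicate 1 of every line so did PDK1 (0.99) and SDHC (-0.96). Against only the other lines of runs 1 and 2, all 4 of the lower genes missed the call, with differences of -0.38 for CS, -0.29 for IDH3G, -0.83 for SDHC and -0.80 for FH. Mesenchymal and fibroblast markers were highest in Hs578T, and their part in these counts was not tested.

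Members of one complex did not vary as a block. Over the 15 lines, the Pearson correlation of log2 CPM had a median of 0.08 over 666 pairs of members and of 0.23 over 26 pairs within a complex, against -0.01 for members with all genes. These values are descriptions, since lines share runs and media. The 26 pairs include SUCLA2 with SUCLG2, which are alternative beta subunits of succinyl-CoA synthetase. Within complexes the highest were 0.66 for DLAT and PDHX and 0.64 for DLAT and DLD, which were 0.41 and 0.38 with the 2 lines most distant from the median of the first gene left out. The lowest were -0.18 for IDH3B and IDH3G and -0.26 for SDHB and SDHC. In between lay PDHA1 with PDHB at 0.42, SDHA with SDHD at 0.56, SDHA with SDHB at 0.54, IDH3A with IDH3B at 0.55, SUCLG1 with SUCLG2 at 0.53, and MPC1 with MPC2 at 0.33. With those 2 lines left out, IDH3A with IDH3B was at 0.25, MPC1 with MPC2 at 0.18 and SDHA with SDHD at 0.45. SUCLG1 with SUCLG2 was then at 0.61, SDHA with SDHB at 0.58 and PDHA1 with PDHB at 0.44, no lower than with all lines. The other 16 pairs within complexes lay between -0.11 and 0.39.

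Over all pairs, the highest values were 0.81 for DLAT and SDHD, 0.77 for SUCLG1 and SDHC, and 0.69 for MPC2 and IDH1. With 2 lines left out in the same way, they were 0.62, 0.73 and 0.58. DLAT and SDHD lie close to each other on chromosome 11, at chr11:112024814-112064390 and chr11:112086773-112120013 (GRCh38, GENCODE 29). The lowest values were -0.67 for PDP1 and MDH1, -0.65 for PDHA1 and SUCLA2, and -0.60 for PDHB and SUCLA2.

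For each call, the 10 nearest tested protein-coding genes were looked up in the same line, a step chosen after the calls had been seen. Of the neighbours of members called higher, 28.6% were called higher too, against 26.2% for all protein-coding genes called higher, and of those of members called lower 21.6% were lower, against 23.1%. The members are therefore near the background in this. Single loci differed widely. All 10 neighbours of ME2 were higher in HCC1187, by a median of 2.09 on the log2 scale, and 9 of 10 neighbours of PDHX were higher in HCC1806, by a median of 2.32, which is the size of the difference of PDHX itself. PDHX in MDA-MB-468 had 7 higher neighbours (median 1.69), ACO1 in HCC70 had 8 (median 1.28), and SUCLA2 in MDA-MB-468 had 7 lower ones (median -1.38).

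DLAT and SDHD in HCC1806, whose windows share genes, and IDH3A and IDH3B in HCC38, on chromosomes 15 and 20, had 6 higher neighbours each. By contrast, ME1 in MDA-MB-453 had 2 lower and 2 higher neighbours (median 0.05), PDK4 in MDA-MB-157 had 3 higher (median 0.47), IDH1 in HCC70 had 1 higher and 2 lower (median 0.27), and ACO1 in MDA-MB-453 had 0 lower and 1 higher (median 0.52). Among all 58 higher calls of members, 15.5% had 6 or more neighbours with the same call, against 11.6% for all protein-coding genes called higher. Among the 64 lower calls it was 3.13%, against 8.16%. Loci with many such neighbours therefore also occur among genes at large. DNA copy number was not analysed here.

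**Figure D4:**
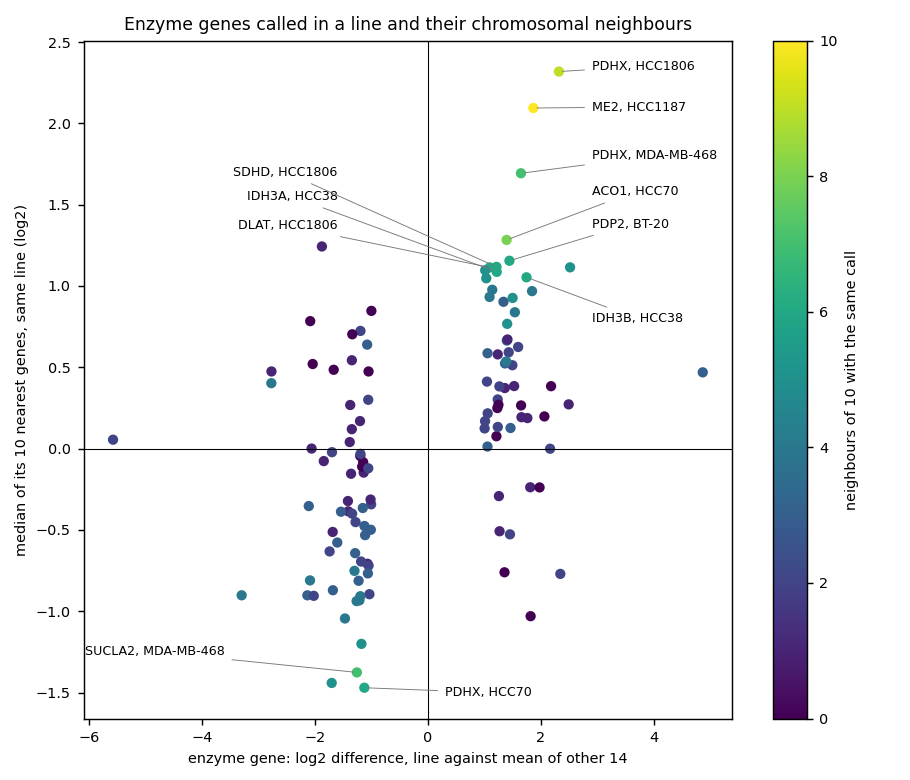
Each point is 1 of 122 called pairs of enzyme gene and line: log2 difference of the gene from the mean of the other 14 lines (horizontal) and median log2 difference of its 10 nearest tested protein-coding genes in that line (vertical), coloured by how many neighbours had the same call. ME2 in HCC1187 and PDHX in HCC1806 lie at the top with neighbours above 2, while ME1 in MDA-MB-453, at -5.58, lies level with 0.

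The study's title sets the TCA cycle beside MYC, and members were set against the level of MYC over the 15 lines, which was highest in MDA-MB-231 (7.54 log2 CPM) and lowest in MDA-MB-453 (3.94 log2 CPM). With edgeR on the summed counts of each line, 0 of 37 members rose with MYC (0.00376% of 26614 genes did) and 0 fell (0.15% did). At an unadjusted p under 0.05 there were 0 rising members (3.22% of all genes) and 1 falling (3.58%), which was PDK4, with a slope of -1.03 ± 0.44 log2 units per log2 unit of MYC (SE; adjusted p = 0.693). DESeq2 also called 0. Slopes were positive for 23 members and negative for 14, with a median of 0.08, against 0.01 for all genes. The next in size were ACO1 at 0.61 ± 0.32 and ME2 at 0.51 ± 0.31. The slope of PDK4 rested on MDA-MB-157, which has low MYC: without that line it was 0.71, and that of ME1, 0.46 ± 0.65, was -0.56 without MDA-MB-453. The SEs of 0.15 to 0.65 leave modest slopes undetectable with 15 lines.

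L-15 medium holds galactose and pyruvate but no glucose, and the 5 lines grown in it were compared with the 8 lines in RPMI 1640 on summed counts. By edgeR 0 of 37 members were higher (0% of 20505 genes were) and 0 lower (0%), with an adjusted p under 0.05 and a log2 difference of at least 1. At an unadjusted p under 0.05 there were 3 higher (5.83% of all genes) and 1 lower (5.6%). PDK4 had line means of 1.17 to 107 CPM (median 10.1) in L-15 lines, against 0.774 to 10.9 CPM (median 2.79) in RPMI 1640 lines, a log2 difference of 2.81 ± 0.87 (adjusted p = 0.305, edgeR). DESeq2's own test called it higher (2.78, adjusted p = 0.0318), and only PDK4 among the members. The groups overlap, and the highest L-15 value is that of MDA-MB-157. Without that line the difference was 0.97 (adjusted p = 0.692, edgeR). The summed fibroblast markers ran over 3.96 to 445 CPM in L-15 lines, against 2.65 to 41.2 CPM in RPMI 1640 lines, with MDA-MB-157 the highest, and up to 21.3 CPM in the other L-15 lines. Of the 4 markers, 3 had a positive log2 difference between media and none was called by edgeR. The median over the 4 was 3.09 between media and -1.68 for the slope on MYC. Their part in the values of PDK4 was not tested.

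PDK1 had 34.8 to 120.3 CPM (median 51.0) in L-15 lines, against 14.2 to 61.4 CPM (median 29.8) in RPMI 1640 lines (0.98 ± 0.43, adjusted p = 0.412). PDHB differed by 0.64 ± 0.26 (adjusted p = 0.394) and SUCLA2 by -0.999 ± 0.41 (adjusted p = 0.391). For every one of the 37 members, the line means of the media overlapped. Medium and line origin cannot be told apart, since no line was grown in both.

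**Figure D5:**
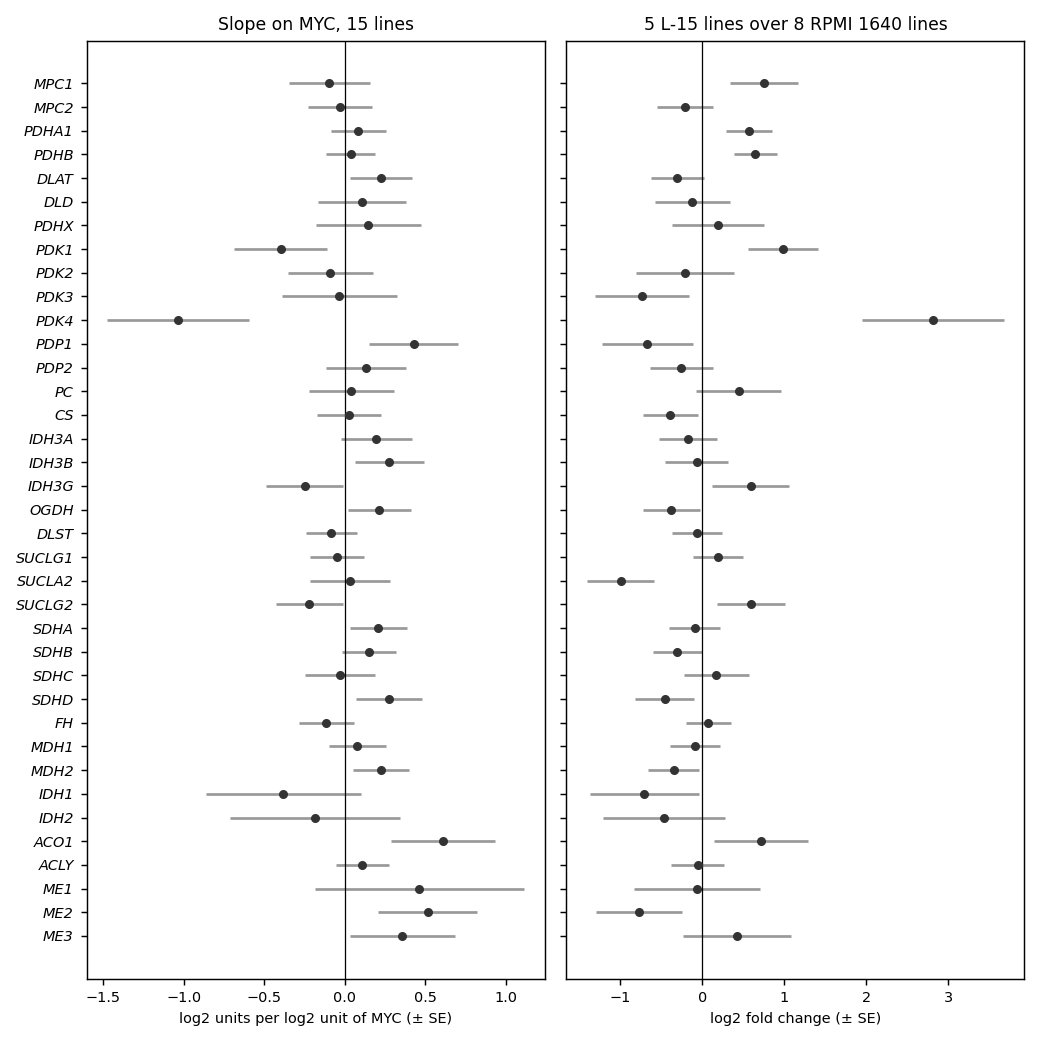
Left, slope of each of 37 enzyme genes on MYC over 15 lines (log2 units per log2 unit, ± SE). Right, log2 difference of 5 L-15 lines over 8 RPMI 1640 lines (± SE). No gene passed adjustment by edgeR on either side, and PDK4 lies farthest from 0 on both, at -1.03 and 2.81.

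Genes of related pathways were read from lists of known members and set beside 1 enzyme each by Pearson correlation over the 15 lines, as a description. Of the lists, every tested gene differed among lines, as 98.2% of all genes did, and 0 genes were called for MYC or medium. Hypoxia-inducible genes went with PDK1: 9 of 10 correlations were positive, with a median of 0.48, against 0.01 for all genes with PDK1. The highest was CA9, a carbonic anhydrase induced by hypoxia, at 0.72, and 0.67 when the 2 lines most distant in PDK1 were left out. NRF2 targets were positive with ME1 in 10 of 11 cases (median 0.22, against -0.02), led by GCLM and GCLC, the subunits of the enzyme that starts glutathione synthesis, at 0.66 and 0.55. Without the 2 farthest lines these were 0.45 and 0.53, while HMOX1 went to -0.45, against 0.34 with all lines.

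PPAR and FOXO targets were positive with PDK4 in 8 of 9 cases (median 0.29, against 0.04), with ANGPTL4, a secreted lipase inhibitor, highest at 0.58, and at 0.33 without the 2 farthest lines. Lipoylation and succinate dehydrogenase assembly genes had a median of 0.10 with DLAT over 13 genes, and the highest was SDHAF2, an assembly factor of SDHA, at 0.78. A list of mitochondrial carriers, chosen for cycle intermediates, had a median of 0.22 with CS over 8 genes, 7 of them positive. The aspartate-glutamate carrier SLC25A13 was highest at 0.53. SLC25A20, the carnitine-acylcarnitine carrier, which like SLC25A13 moves no cycle intermediate, was negative at -0.48. Regulators of mitochondrial biogenesis had 0.15 with CS over 7 genes, with TFB2M, a mitochondrial transcription factor, at 0.61, and at 0.21 without the 2 farthest lines. Fatty acid and sterol synthesis genes had 0.11 with ACLY over 10 genes, with ACACA, acetyl-CoA carboxylase, at 0.46. For the 10 tested ATF4 targets no correlation could be given, since PCK2, the enzyme they were set beside, was not measured.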

How the data were processed

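RNA of 45 libraries, 3 from each of 15 untreated cell lines, was measured by RNA-seq after ribosomal RNA depletion. The authors deposited 1 table of raw gene counts, and every column was used. Per the submitters' processing notes, bcl2fastq 2.20.0.422, FastQC, MultiQC, Trimmomatic, STAR and featureCounts were used with GRCh38.p12. No source used here gives the strand setting or how multiply aligned reads were handled. Identifiers were matched to GENCODE 29, and 58275 of 64485 (90.4%) matched.

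The 38 members and the gene lists were chosen with earlier results of these data known. All members are described by role, with their highest and lowest lines, and library by library where a line's 3 libraries lay outside all 42 others. Checks of neighbouring genes, promoters, exon lengths and runs 1 and 2 alone were chosen after values had been seen.

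CPM used TMM scaling (edgeR 4.0.16, R 4.3.3). Genes were kept by filterByExpr (minimum count 10, total 15). Tests were two-sided edgeR quasi-likelihood tests on all genes with Benjamini-Hochberg adjustment at 0.05: among lines, each line against the mean of the other 14 (also requiring a log2 difference of 1), and, on counts summed per line, the slope on log2 CPM of MYC and 5 L-15 against 8 RPMI 1640 lines. MYC itself was left out of the slope test. The common coefficient of variation between replicates was 0.153. The procedure was tested on simulated data. Alternatives used limma 3.58.1 and DESeq2 1.42.0.

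For runs 3, 4 and 5, 11 lines had 1 library in each, and the other lines were in runs 1 and 2, so the run label pairs libraries. Libraries of the same run deviated together only weakly (median r = 0.06 in runs 3 to 5, against -0.03 for different runs). Replicates of every line differed by more than sampling noise. The result of 1 gene list is not reported here.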

Additional observations from a re-analysis of the deposited data

Results flagged for a closer look

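Dixon's test for a single outlying value was applied to each of 37 genes within the 5 L-15 lines and the 8 RPMI 1640 lines, 74 groups in all, and 4 met it (5.41%). Chance gives about 1 in 20 groups, or 3.7 of 74, so the count is at the background. Among the RPMI 1640 lines, PDHX was far above the rest in HCC1806, at 504 CPM, with the next highest, HCC1187, at 127 CPM. IDH3B was far above the rest in HCC38, at 393 CPM, with HCC1937 next at 136 CPM. OGDH was far below the rest in the same line, HCC38, at 26.9 CPM, with HCC1187 next at 69.5 CPM. Among the L-15 lines, CS was far below the rest in MDA-MB-231, at 21.1 CPM, with MDA-MB-468 next at 50.1 CPM.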

How the results depend on the processing

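Calls in single lines kept their direction under every alternative tried. Higher calls numbered 45 to 62 and lower calls 45 to 69, with 45 of each in the 11 lines of runs 3 to 5 alone. With the run as a replicate block there were 61 higher and 69 lower calls, and without 1 replicate of each line 56 to 62 higher and 61 to 67 lower. In the 4 lines of runs 1 and 2 alone, which have fewer pairs, there were 17 higher and 16 lower, and all 37 members differed among lines in every setting other than this one (34). HCC1143 had 9 to 12 lower members, and 1 higher, or 2 in those 4 lines. Over the named pairs of gene and line, 1026 recalculated values kept the call and 72 lost it. In 53 of these the difference stayed at 0.9 or more on the log2 scale, and of the other 19, 9 came from the comparison within the 4 lines of runs 1 and 2. In 3 the adjusted p was at or over 0.05: MPC1 in HCC1143 (0.0561) and IDH3G in Hs578T (0.205) within those 4 lines, and PDK4 in BT-20 without replicate 2 (adjusted p = 0.0593, edgeR). DESeq2's size factors moved the median log2 difference of all genes by 0.12 in Hs578T, 0.11 in MDA-MB-157 and -0.09 in HCC70, and by less in the other lines. Testing without the expression filter, which adds genes with few reads, moved it by 0.29 in Hs578T and -0.36 in HCC70. For MYC, the slopes of 6 members were followed in each setting, and signs of the other members were not compared. In the 8 RPMI 1640 lines, the slopes of PDK4 (2.30), ME1 (-1.45) and ACO1 (-1.49) changed sign. That of PDK4 also changed sign without MDA-MB-157 (0.71) and with a replicate block in limma-voom (0.028). That of ME1 did so without MDA-MB-453 (-0.56). Over all members there were 0 calls throughout. For the media, DESeq2's test called 1 member higher, PDK4, where edgeR called 0. Its difference was 1.75 with the replicate block and 0.97 without MDA-MB-157. The causes of these shifts were not tested. On counts summed per line, the SE of the slope on MYC was widest for ME1 (0.65), IDH2 (0.53) and IDH1 (0.48).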
